A study of Mus musculus with 18 samples.

Results

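The genes described here make cholesterol and fatty acids, or control and move what is made. A list of 33 genes was taken, and each gene was read by the probe set annotated to its symbol, using the one with the highest mean level over all arrays where there were several. Acat2, the cytosolic thiolase that joins acetyl units, has no probe set in the annotation used here, so 32 genes were measured, of 18193 genes with a probe set. They fall into 6 mevalonate and isoprenoid enzymes (Hmgcs1, Mvk, Pmvk, Mvd, Idi1, Fdps), 3 enzymes of squalene and lanosterol formation (Fdft1, Sqle, Lss) and 8 enzymes that turn lanosterol into cholesterol (Cyp51, Tm7sf2, Msmo1, Nsdhl, Hsd17b7, Ebp, Sc5d, Dhcr7). A further 7 regulate or move sterols (Insig1, Insig2, Srebf1, Srebf2, Scap, Stard4, Abca1), 1 supplies acetyl units (Acly), and 7 build and modify fatty acids (Acaca, Fasn, Elovl6, Scd1, Scd2, Fads1, Fads2). All 32 were bright enough to be tested in every comparison.

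Cholesterol is built from acetyl-CoA by way of mevalonate, isoprenoid units, squalene and lanosterol. SREBP2, the product of Srebf2, switches on the genes of this route when membrane sterol is low, and SREBP1, from Srebf1, does so mainly for fatty acid genes. Both wait in the endoplasmic reticulum bound to SCAP, and the Insig proteins hold that complex back when sterol is plentiful. LXR, a receptor for oxidised sterols, works in the other direction and raises Abca1, which exports cholesterol from the cell.

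The samples were mouse embryonic stem cells, 3 biological replicates in each of 6 groups and 1 array per sample. In 4 groups, cells of the line CGR8 received by lipofection an empty vector, Foxd3, CA-NFATc3 or Foxd3 together with CA-NFATc3. Foxd3 is a forkhead transcription factor of pluripotent cells, and CA-NFATc3 is by its usual meaning a constitutively active NFATc3, a transcription factor that calcineurin switches on. The other 2 groups were conditional knockout cells, Foxd3fl/fl:Cre-ERT, kept in DMSO (0 days of tamoxifen) or treated for 2 days with tamoxifen, which lets the Cre enzyme cut out Foxd3. The labels name the same source, medium (GMEM, 10% serum, LIF) and transfection step for all samples, and do not say whether the knockout line is 1 clone, whether feeder cells were used, or whether replicates were separate cultures. The p-values therefore measure the spread between samples that may be technical. Tamoxifen and the loss of Foxd3 come together and cannot be told apart. The titles name a plasmid only for the 4 transfected groups, so the line, any plasmid and the solvent cannot be told apart either.

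The labels were checked on the targeted genes first. The Foxd3 signal was 219 ± 25.9 (SD, n = 3) with DMSO and fell to 31.4 ± 29.6 after tamoxifen, as labelled. In the transfected cells it was 443 ± 55.9 with the vector and 237 ± 5.95 in the arrays labelled Foxd3, the opposite of the label, and 451 ± 38.6 with CA-NFATc3 against 234 ± 37.7 in the arrays labelled with both. Directions for Foxd3 plasmids below therefore hold for the libraries labelled so. Rcan1, a feedback target of NFAT, rose with CA-NFATc3 by a log2 change of 1.59 ± 0.11 (SE, limma adjusted p = 2.05e-07), while Nfatc3 itself did not pass the test (0.13, adjusted p = 0.352). In the arrays labelled with both, Rcan1 was not called against the vector (0.26 ± 0.11, adjusted p = 0.224). There it was lower than with CA-NFATc3 alone (-1.32 ± 0.11, adjusted p = 2.35e-06). The check by Rcan1 therefore holds for the arrays labelled CA-NFATc3 alone.

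The start of 3 genes of the sterol route that changed below is shown, from the RefSeq promoter table of assembly GRCm38.p6. It held 26 of the 33 listed genes. The 250 bases before each start are printed 5′ to 3′ on the gene's own strand, at chr13:119690101-119690350 (plus strand) for Hmgcs1, chr5:28071162-28071411 (plus strand) for Insig1 and chr5:4104698-4104947 (minus strand) for Cyp51. Capitals mark 4 motifs on either strand: a sterol response element core TCACNCCAC (reverse complement GTGGNGTGA), the CCAAT box bound by NF-Y, the GC box GGGCGG bound by Sp1-type factors, and the E-box CACGTG.
Hmgcs1: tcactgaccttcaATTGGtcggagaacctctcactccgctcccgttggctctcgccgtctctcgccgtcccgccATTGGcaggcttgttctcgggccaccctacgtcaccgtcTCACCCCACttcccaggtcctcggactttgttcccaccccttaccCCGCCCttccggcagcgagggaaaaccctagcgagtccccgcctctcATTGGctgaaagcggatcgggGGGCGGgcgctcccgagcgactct
Insig1: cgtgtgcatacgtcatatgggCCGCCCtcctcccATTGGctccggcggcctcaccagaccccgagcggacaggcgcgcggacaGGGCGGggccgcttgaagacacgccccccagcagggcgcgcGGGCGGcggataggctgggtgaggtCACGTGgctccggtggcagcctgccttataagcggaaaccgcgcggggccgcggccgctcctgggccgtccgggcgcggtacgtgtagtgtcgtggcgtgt
Cyp51: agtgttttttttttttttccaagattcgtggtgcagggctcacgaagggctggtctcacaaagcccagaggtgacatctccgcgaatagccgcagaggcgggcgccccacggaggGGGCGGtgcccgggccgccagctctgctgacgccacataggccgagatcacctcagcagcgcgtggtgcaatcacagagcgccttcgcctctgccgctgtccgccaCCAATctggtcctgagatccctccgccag
Hmgcs1, the enzyme that makes HMG-CoA, carried the sterol response element core 137 bases before its start, with CCAAT boxes on the reverse strand at 237, 176 and 45 bases before it. Insig1 had a reverse CCAAT box at 216, GC boxes at 229, 167 and 126, and an E-box at 101 bases before its start. Cyp51, lanosterol demethylase, had a CCAAT box at 29 and a GC box at 135 bases before its start. Over windows that also take in 50 bases after the start, the sterol response element core was found in 1 of the 26 genes (3.85%, Hmgcs1), against 1.44% of the 27025 genes in the table. The CCAAT box was found in 20 of 26 (76.9%, against 41.1% of all genes and 42.0% of genes on the array), and the GC box in 22 (84.6%, against 38.2% and 57.3%). The E-box was found in 6 (23.1%, against 8.09% and 10.2%): Hsd17b7, Sc5d, Dhcr7, Insig1, Scap and Abca1. These are matches of letters, with no test and no evidence of binding. Among the 11 genes in the table that were lower with tamoxifen, 11 held a CCAAT box and 9 a GC box. The shares among all genes lower with tamoxifen were not counted, so a link of either motif with the fall was not tested.

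Levels are given as the deposited signal, in arbitrary units that can be set against other arrays but not against another gene, and changes as log2 differences of the signal plus 32 with the standard error of the limma fit, 3 arrays per group. Folds and percent changes are of the signal plus 32. A gene was called when its p-value, adjusted over all genes tested in the comparison, was under 0.05. Arrays of the same group had correlations of 0.986 to 0.991 over all probe sets. The median signal of an array was 55.2 to 67.1 in the transfected and 73.0 to 80.7 in the knockout cells.

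**Figure D1:**
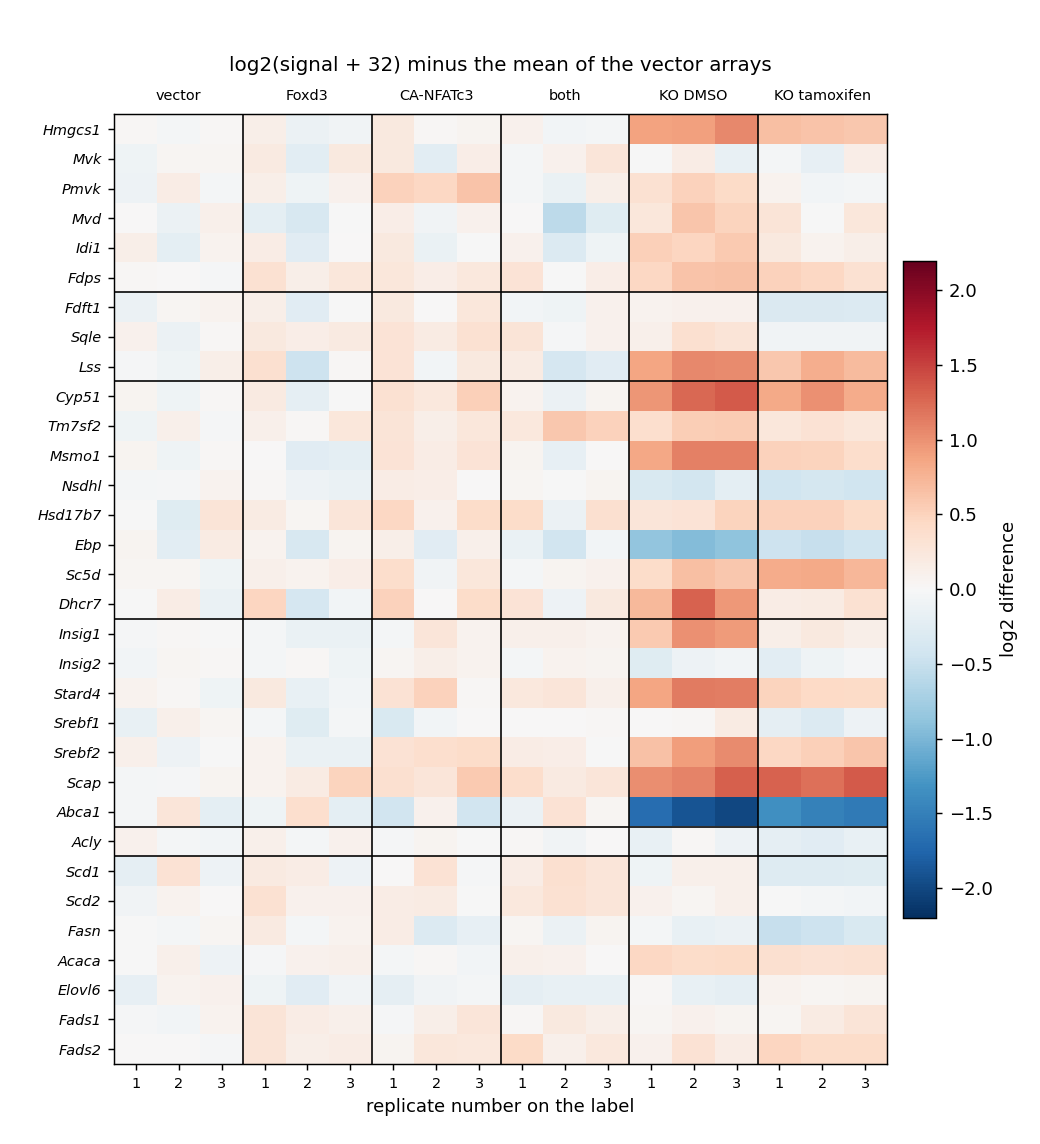
Each cell is log2(signal + 32) of 1 gene on 1 array minus the mean of the 3 vector arrays. Columns are the 18 arrays by group and replicate number (KO, knockout; both, Foxd3 and CA-NFATc3), and rows are the 32 genes, with lines between pathway steps. Most rows of sterol enzymes are red in the knockout arrays with DMSO and paler with tamoxifen, Abca1 and Ebp are blue there, and the 12 transfected arrays lie close to 0.

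Much of the sterol route was lower with tamoxifen in the conditional knockout cells, and few of its genes were higher. Of the 32 genes, 16 were lower and 3 higher than with DMSO, while 13 did not pass the test. Over all 12093 genes tested, 34.4% were called, 16.9% lower and 17.5% higher. The median change of the 32 genes was -0.25, against -0.01 over all genes. The falls were moderate: from -0.12 to -0.76 on the log2 scale, the largest in Dhcr7, Insig1, Stard4 and Msmo1. For 15 of the 16 lower genes, all but Cyp51, every array with tamoxifen lay below every array with DMSO. These genes were called on the same arrays, so the gap follows largely from the call and is no separate result. The share of all genes with such a gap, called or not, was 23.9%. In such bulk samples, fewer cells that express a gene and less RNA per cell cannot be told apart.

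At the head of the route, 3 of 6 mevalonate and isoprenoid enzymes were lower and 0 higher. Hmgcs1 read 12902, 13137 and 14571 with DMSO and 11042, 10814 and 10582 with tamoxifen. All 3 arrays with tamoxifen were below those with DMSO, a log2 change of -0.32 ± 0.05 (adjusted p = 0.000571). Idi1, which isomerises the first isoprenoid unit, read 5566, 5341 and 5753 with DMSO and 4490, 4066 and 4214 with tamoxifen. That was 23.2% lower (log2 -0.38 ± 0.06, adjusted p = 0.000268), again without overlap. Pmvk, the second mevalonate kinase step, read 1229, 1385 and 1299 against 1019, 922 and 935 (log2 -0.43 ± 0.08, adjusted p = 0.00108). The other 3 enzymes were not called: Mvd, the mevalonate diphosphate decarboxylase, had a change of -0.27 ± 0.12 (adjusted p = 0.0969), Fdps, which makes farnesyl diphosphate, -0.14 ± 0.07 (0.133), and Mvk, the first kinase, -0.02 ± 0.14 (0.932). All 6 values lay below 0. The 95% interval for Mvk ran from -0.34 to 0.30, which does not separate it from the fall of Hmgcs1.

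The enzymes of squalene and lanosterol formation all fell, 3 of 3. Fdft1, squalene synthase, read 5825, 5866 and 5884 with DMSO and 4393, 4398 and 4476 with tamoxifen, with a narrow spread within each group. The change was -0.40 ± 0.05 (adjusted p = 4.34e-05). A second bright probe set of Fdft1 was lower too (-0.30 ± 0.06, adjusted p = 0.00316), but the mean over all probe sets, some of which are dim, was not (adjusted p = 0.827). Sqle, squalene epoxidase, read 2773, 3304 and 3142 against 2427, 2443 and 2445, or 20.2% lower (log2 -0.33 ± 0.07, adjusted p = 0.00306). Its arrays with tamoxifen lay closer together than those with DMSO. Lss, which folds squalene epoxide into lanosterol, read 811, 927 and 913 against 664, 774 and 712 (log2 -0.29 ± 0.09, adjusted p = 0.0240), and its adjusted p rose to as much as 0.199 when DMSO replicate 2 or 3, tamoxifen replicate 1 or 3 was left out or all 18 arrays were fitted together.

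Past lanosterol the steps went different ways, with 3 lower, 2 higher and 3 not called among 8. Dhcr7, the last enzyme of the route, read 868, 1314 and 1022 with DMSO and 581, 589 and 660 with tamoxifen. Every tamoxifen array was below every DMSO array, and the change of -0.76 ± 0.13 (40.9% lower, adjusted p = 0.000810) was the largest fall among the 32 genes. Msmo1, the sterol C4-methyl oxidase, read 5807, 6941 and 6976 against 4566, 4536 and 4227 (log2 -0.56 ± 0.07, adjusted p = 0.000112), also apart. Cyp51 read 1716, 2105 and 2254 against 1561, 1759 and 1535, so its groups overlapped by 1 array on each side. Its call (-0.31 ± 0.10, adjusted p = 0.0264) was lost without DMSO replicate 2 or 3 or tamoxifen replicate 1 or 3, with an adjusted p of up to 0.0951.

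Ebp, the sterol isomerase, moved the other way from Dhcr7, Msmo1 and Cyp51. It read 1060, 1005 and 1045 with DMSO and 1425, 1370 and 1438 with tamoxifen, which is 1.35-fold higher (log2 0.43 ± 0.07, adjusted p = 0.000415) and without overlap. Sc5d, the lathosterol desaturase, was called higher by its brightest probe set (921, 1108 and 1053 against 1238, 1243 and 1154, log2 0.24 ± 0.08, adjusted p = 0.0440). A second probe set of Sc5d was called lower (-0.30 ± 0.11, adjusted p = 0.0474), so the data give no direction for this gene. Tm7sf2, a sterol reductase, had a change of -0.22 ± 0.10 (adjusted p = 0.101), Nsdhl, which removes the C4 carboxyl group, -0.10 ± 0.08 (0.354), and Hsd17b7, which reduces the C3 ketone, 0.13 ± 0.09 (0.303).

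Among the regulators, sterol carriers and exporters, 4 of 7 were lower and 1 was higher. Insig1, itself a target of SREBP, read 3231, 4378 and 4169 with DMSO and 2378, 2529 and 2377 with tamoxifen. The groups did not overlap, and the change was -0.67 ± 0.10 (37.3% lower, adjusted p = 0.000250). Stard4, a cytosolic sterol carrier and also an SREBP target, read 1227, 1484 and 1465 against 936, 897 and 891 (33.8% lower, log2 -0.59 ± 0.08, adjusted p = 0.000235). Srebf2 read 809, 975 and 1064 against 699, 735 and 785 (log2 -0.34 ± 0.10, adjusted p = 0.0224). Srebf1 read 1469, 1487 and 1644 against 1261, 1182 and 1350 (log2 -0.27 ± 0.07, adjusted p = 0.0152). Both SREBP genes kept their groups apart, yet each lost its call under some alternatives, Srebf2 without DMSO replicate 2 or 3 or tamoxifen replicate 1 or 2 and with the mean of probe sets (-0.22, adjusted p = 0.196), and Srebf1 without DMSO replicate 3 or tamoxifen replicate 2 (up to 0.0746). Abca1 went the other way: it read 933, 790 and 738 with DMSO and 1178, 1062 and 1012 with tamoxifen (31.3% higher, log2 0.39 ± 0.10, adjusted p = 0.00845). This call was lost when all 18 arrays were fitted together and when its probe sets were averaged (adjusted p up to 0.50). Insig2 (0.03 ± 0.08, adjusted p = 0.828) and Scap (0.14 ± 0.09, adjusted p = 0.245) were not called.

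Of the 7 fatty acid genes 3 were lower and 0 higher. Fasn, the fatty acid synthase, read 3635, 3367 and 3446 with DMSO and 2623, 2744 and 2957 with tamoxifen (20.2% lower, log2 -0.33 ± 0.06, adjusted p = 0.00163). Scd1, a stearoyl-CoA desaturase, read 2378, 2755 and 2736 against 2067, 2080 and 2106 (log2 -0.32 ± 0.07, adjusted p = 0.00304). Both genes had all arrays with tamoxifen below those with DMSO. Scd2, a second stearoyl-CoA desaturase, was 8.12% lower (15052, 14474 and 15275 against 14035, 13628 and 13489, log2 -0.12 ± 0.04, adjusted p = 0.0379), a call lost without DMSO replicate 1 or 3 or any 1 tamoxifen array, under quantile normalization, without a filter, with the mean of probe sets and with all 18 arrays in 1 fit (adjusted p up to 0.328). Elovl6, which lengthens palmitate, read 3054, 2680 and 2630 against 3165, 3117 and 3163 and missed the threshold (0.18 ± 0.06, adjusted p = 0.0518). Fads1 and Fads2, the desaturases of long polyunsaturated chains, had values of 0.10 ± 0.08 (adjusted p = 0.364) and 0.24 ± 0.09 (0.0645), and Acaca, acetyl-CoA carboxylase, -0.09 ± 0.07 (0.339). Acly, which splits citrate to acetyl-CoA, had -0.12 ± 0.06 (adjusted p = 0.118) by its brightest probe set.

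Several of the called genes have other probe sets that could be tested. Of 18 such probe sets for 11 called genes, 17 had the same direction, 11 of them called, and 1 was called in the opposite direction, that of Sc5d. For Acly, not called by its brightest probe set, other probe sets were called lower.

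Markers of other cell types moved with tamoxifen beside these genes. Of 10 fibroblast markers, 9 were higher with tamoxifen, with a median change of 1.73, and their summed signal was 3091 to 3675 with DMSO and 16417 to 18655 with tamoxifen, against 587 to 638 in the vector arrays. Lum and Fap were below 65.8, the signal needed for testing, with DMSO, and 0 of the 10 with tamoxifen. Of 10 pluripotency markers 4 were lower, and the summed signal was 102555 to 105260 with DMSO and 90893 to 95691 with tamoxifen. Of 11 endoderm markers tested 4 were higher and 0 lower (summed signal 10460 to 12724 against 15421 to 16463, with Gata4 and Foxa2 below 65.8 in both groups), and of 9 trophoblast markers 1 was higher and 4 lower (11787 to 16060 against 11909 to 12816, with Elf5 below 65.8 in both). The ratio of 3′ to 5′ actin signal, a sign of RNA integrity, was 2.15 ± 0.09 (SD, n = 3) with DMSO and 1.89 ± 0.003 with tamoxifen, and that of Gapdh was 1.01 and 1.02. The part of any of these in the changes of the 32 genes was not tested.

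**Figure D2:**
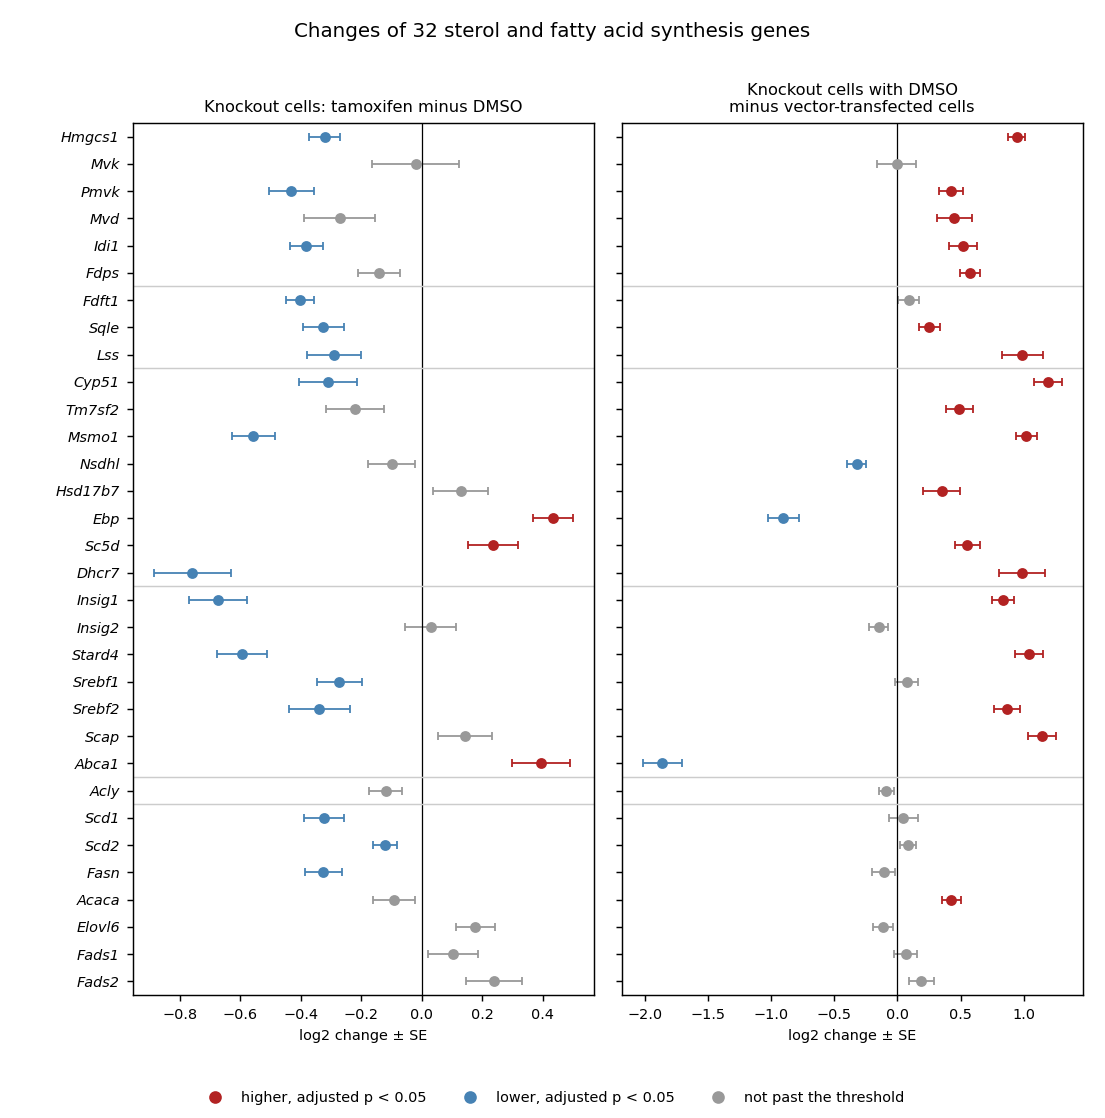
Log2 change ± SE of each of the 32 genes, with tamoxifen minus DMSO on the left and knockout cells with DMSO minus vector-transfected cells on the right, 3 arrays per group. Colours mark genes past an adjusted p of 0.05. On the left 16 points are called lower and 3 higher, and on the right 18 higher and 3 lower. Both panels use the same arrays with DMSO, so they are not independent.

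The knockout cells with DMSO were then set against the vector-transfected cells, which by their labels differ in line, named plasmid and solvent at once. Many sterol genes were higher in the knockout cells even before tamoxifen: 18 of the 32 were higher, 3 lower and 11 not called, where 55.0% of all 12678 genes were called, 33.0% higher and 22.0% lower. The median change of the 32 genes was 0.39, against 0.11 over all genes. When the arrays were given equal signal distributions (quantile normalization), those medians were 0.31 and 0.01, and the calls over all genes split into 3311 higher and 3271 lower in place of 4178 and 2790. For 14 of the 32 genes, all 3 arrays with DMSO lay above all 12 transfected arrays, as for 22.9% of all genes, and for 3 genes they lay below, as for 15.7%.

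The enzymes up to lanosterol were higher in 7 of 9 cases. Hmgcs1 read 7140, 6795 and 7094 with the vector, well under the 12902 to 14571 of the DMSO arrays, a log2 difference of 0.94 ± 0.07 (1.92-fold, adjusted p = 6.87e-10). Lss went from 422, 397 and 470 to 811, 927 and 913 (0.99 ± 0.16, adjusted p = 3.38e-05). Fdps (0.57 ± 0.08), Idi1 (0.52 ± 0.11), Mvd (0.45 ± 0.14) and Pmvk (0.43 ± 0.09) were higher as well, with adjusted p between 3.87e-06 and 0.0104. Sqle was higher by 0.25 ± 0.08 (adjusted p = 0.0127), and lost that call without vector replicate 2 or DMSO replicate 2. Mvd lost its call without DMSO replicate 2 (adjusted p up to 0.0824) and under quantile normalization. Fdft1 (0.09 ± 0.08, adjusted p = 0.382) and Mvk (-0.005, adjusted p = 0.982) were not called.

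Beyond lanosterol all 8 enzymes were called, 6 higher and 2 lower. Cyp51 had the largest rise of the 32 genes by the brightest probe set, from 903, 808 and 878 to 1716, 2105 and 2254 (2.29-fold, log2 1.19 ± 0.11, adjusted p = 1.87e-08). Msmo1 rose from 3357, 2998 and 3287 to 5807, 6941 and 6976 (1.02 ± 0.08, adjusted p = 3.76e-09). With the mean of each gene's probe sets the order changed, to 1.34 for Msmo1, 1.2 for Hmgcs1 and 1.05 for Cyp51. Dhcr7 rose from 513, 577 and 462 to 868, 1314 and 1022 (0.99 ± 0.18, adjusted p = 0.0001). In each of these the DMSO arrays stood clear of the vector arrays. Sc5d (0.55 ± 0.10, adjusted p = 0.000112), Tm7sf2 (0.49 ± 0.11, adjusted p = 0.000673) and Hsd17b7 (0.35 ± 0.14, adjusted p = 0.0461) were higher, the last with overlapping groups and a call lost in 10 of 15 alternatives, among them any 1 of the DMSO arrays or vector replicate 1 or 2 left out, quantile normalization and the mean of probe sets (0.04, adjusted p = 0.817). Ebp was lower, from 2047, 1669 and 2226 to 1060, 1005 and 1045 (46.6% lower, log2 -0.90 ± 0.12, adjusted p = 4.19e-06). Nsdhl was lower by -0.32 ± 0.07 (1101, 1119 and 1202 against 896, 849 and 973, adjusted p = 0.00104).

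Of the regulators, Scap, the escort of the SREBPs, rose from 350, 356 and 381 to 770, 810 and 946 (2.21-fold, log2 1.14 ± 0.11, adjusted p = 4.93e-08). Stard4 rose from 691, 666 and 615 to 1227, 1484 and 1465 (1.04 ± 0.11, adjusted p = 1.93e-07), Srebf2 by 0.87 ± 0.10 (adjusted p = 5.80e-07) and Insig1 by 0.84 ± 0.09 (adjusted p = 1.77e-07). Srebf1 (0.07 ± 0.09, adjusted p = 0.535) and Insig2 (-0.15 ± 0.08, adjusted p = 0.110) were not called. Abca1 had the widest difference of the 32 genes by the brightest probe set, from 2968, 3669 and 2611 with the vector to 933, 790 and 738 with DMSO (72.5% lower, log2 -1.86 ± 0.16, adjusted p = 5.62e-09). The 12 transfected arrays of Abca1 read from 2262 to 3934, with no overlap with the knockout arrays of either kind. With the mean of its probe sets, the other ones being dim (mean signals of 40.5 and 29.2), the difference was -0.71 (adjusted p = 0.000713), smaller than that of Cyp51. That setting also brought Srebf2 to 0.52 and Fdps to 0.32, both still called, and quantile normalization brought Tm7sf2 to 0.32 (adjusted p = 0.0163). By their brightest probe sets the fatty acid genes differed little: Acaca was the 1 of 7 called (0.43 ± 0.08, adjusted p = 8.33e-05, lost when its probe sets were averaged, adjusted p = 0.660), and Fasn (-0.11 ± 0.09, adjusted p = 0.324), Scd1 (0.05 ± 0.12, 0.755), Scd2 (0.08 ± 0.06, 0.286), Elovl6 (-0.12 ± 0.08, 0.211), Fads1 (0.07 ± 0.09, 0.559) and Fads2 (0.19 ± 0.10, 0.104) were not called, nor was Acly (-0.09 ± 0.06, 0.237). Scd2 was called higher under quantile normalization (0.15, adjusted p = 0.0224) and with the mean of probe sets (0.28). Of 18 other probe sets tested for 10 called genes, 16 had the same direction, 14 of them called, and 0 were called in the opposite direction. For Scd2, Acly and Elovl6, another probe set was called. Elovl6 was also called with array weights and without vector replicate 1 (adjusted p down to 0.0277). Its value ranged from -0.20 to 0.20 over the alternatives.

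Both comparisons of knockout cells use the arrays with DMSO, so a gene high there tends to be called higher against the vector and lower with tamoxifen, and the shared calls are no separate result. Insig1 had a mean of 2166 with the vector, 3926 with DMSO and 2428 with tamoxifen, and Dhcr7 517, 1068 and 610. Cyp51, with 863, 2025 and 1618, and Hmgcs1, with 7010, 13536 and 10813, stayed far above the vector. The markers differed here too: of the markers tested, 8 of 10 for fibroblasts were higher with DMSO than with the vector and 0 lower, 9 of 12 for endoderm were higher and 2 lower, 8 of 10 for trophoblast were higher and 1 lower, and 2 of 10 for pluripotency were higher and 6 lower. Of the fibroblast markers, 7 lay below 65.8 with the vector and 2 with DMSO. For endoderm it was 5 and 3, and for trophoblast 3 and 1. Cdx2 had means of 14.9 with the vector and 282 with DMSO. Elf5 had 13.7 and 4.26, and was above 65.8 only with CA-NFATc3. Such markers passed the filter through groups where they were higher, so the sizes of their changes depend on the offset. The ratio of 3′ to 5′ actin signal was 2.31 ± 0.03 (SD, n = 3) with the vector and 2.15 ± 0.09 with DMSO. That of Gapdh was 0.92 ± 0.04 and 1.01 ± 0.03, and for both ratios the groups were apart. The part of the markers and of RNA integrity in the differences was not tested.

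**Figure D3:**
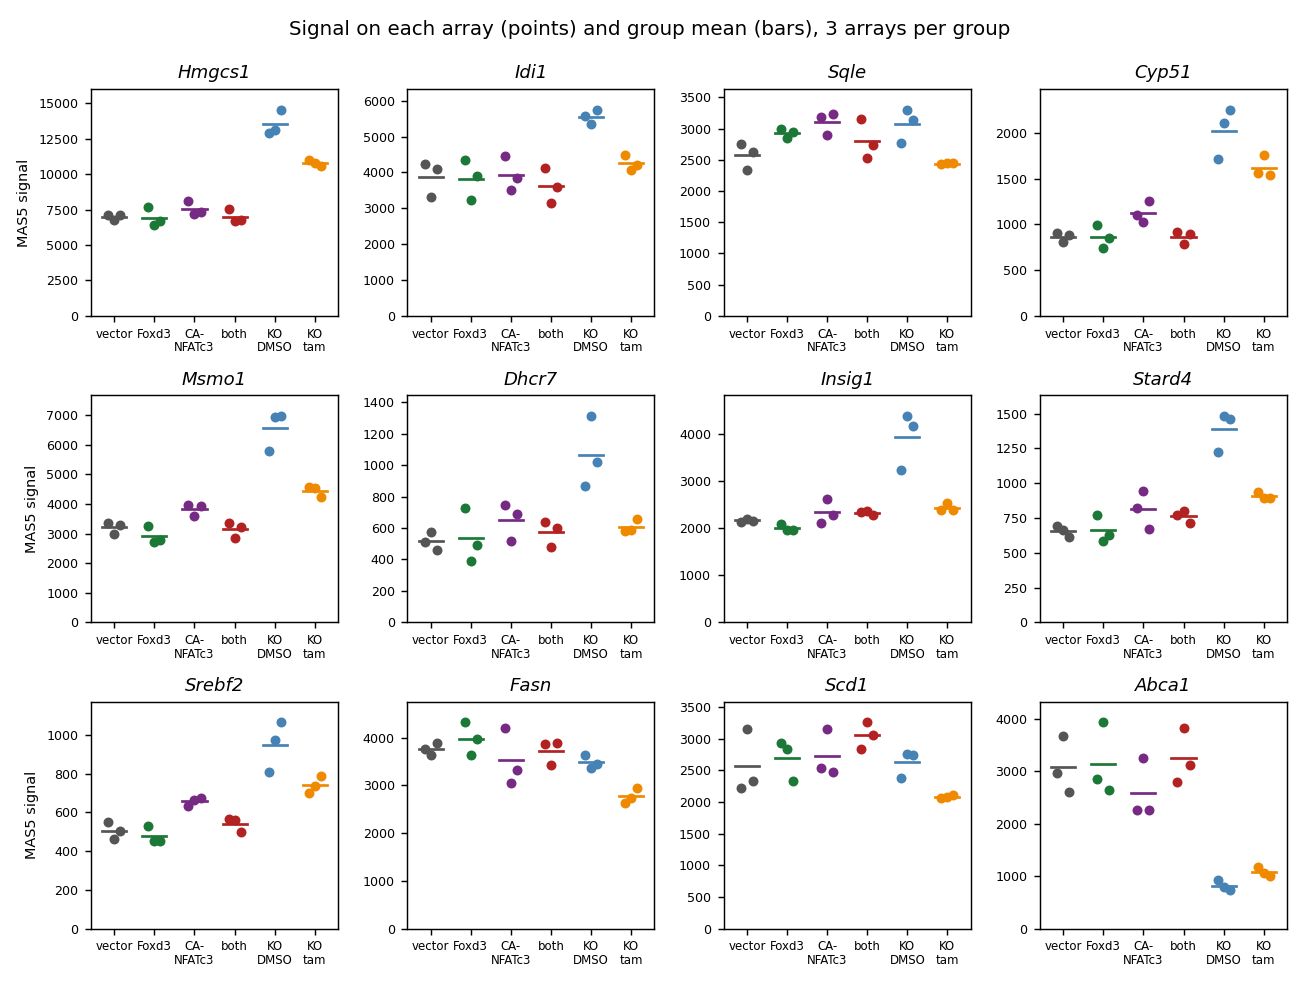
MAS5 signal on each of the 18 arrays for 12 of the genes, with the mean of each group as a bar and each axis starting at 0 (KO, knockout; tam, tamoxifen; both, Foxd3 and CA-NFATc3). The signal is highest with DMSO for Hmgcs1, Idi1, Cyp51, Msmo1, Dhcr7, Insig1, Stard4 and Srebf2, and lowest with DMSO for Abca1.

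In the transfected cells the same genes moved little. With the plasmid labelled Foxd3, 0 of the 32 genes were called against the vector, where 2.88% of all 11609 genes were. At an unadjusted p under 0.05 there were 3, against 14.1% of all genes. Hmgcs1 read 7674, 6427 and 6680 against 7140, 6795 and 7094 (-0.02 ± 0.07, adjusted p = 0.940), and Srebf2 529, 450 and 454 against 549, 461 and 503 (-0.07 ± 0.10, adjusted p = 0.813). The 95% interval for Hmgcs1, from -0.18 to 0.14, leaves out a change of the size seen with tamoxifen, whereas that for Dhcr7, from -0.38 to 0.41, is wide. The other values were 0.19 for Sqle, -0.01 for Cyp51, -0.11 for Insig1, 0.18 for Scd2 and 0.02 for Abca1, with adjusted p between 0.281 and 0.991. Idi1 (-0.02), Stard4 (-0.0007), Srebf1 (-0.12), Scd1 (0.08), Fasn (0.08) and Elovl6 (-0.14) were not called either. Equal replicate numbers pair the arrays of the transfected groups, and with the number as a block 1 gene was called, Fdps (2338, 2309 and 2281 with the vector, 2912, 2518 and 2738 with Foxd3, 0.23 ± 0.06, adjusted p = 0.0295). The block also raised the calls over all genes, here and in the other comparisons of transfected cells (counts at the end).

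With CA-NFATc3, 2 genes were higher and 0 lower, against 5.86% of all genes called, 4.62% higher and 1.24% lower. Pmvk read 883, 1076 and 937 with the vector and 1385, 1327 and 1511 with CA-NFATc3, all 3 above, a log2 change of 0.53 ± 0.10 (1.45-fold, adjusted p = 0.00342). It was called under all 16 alternative settings. Srebf2 read 549, 461 and 503 against 635, 663 and 672 (0.36 ± 0.10, adjusted p = 0.0431). Though its groups did not overlap, it kept the call in 7 of 16 settings, with an adjusted p of up to 0.275, and lost it without vector replicate 2 or 3 or any 1 of the CA-NFATc3 arrays, under quantile normalization, without a filter, with the mean of probe sets and with only the 2 groups in the fit. Of the 32 genes 26 had a value above 0, as did 48.7% of all genes, and their median was 0.12 (-0.005 over all genes).

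Calls in this comparison depended on the pairing of replicates, for these genes and over all genes (counts at the end). Counts with the block are to be read beside the calls over all genes with the block. Those were more than in the fit without it, whose shares are given above. With the replicate number as a block, 8 genes were called: Pmvk and Srebf2 as before, Fdps (0.21 ± 0.06, adjusted p = 0.0412), Sqle (0.27 ± 0.06, 0.00755), Cyp51 (0.37 ± 0.08, 0.00644), Msmo1 (0.25 ± 0.05, 0.00810) and Scap (0.40 ± 0.10, 0.0233) higher, and Abca1 lower (-0.25 ± 0.07, 0.0268). Cyp51 read 903, 808 and 878 with the vector and 1102, 1024 and 1253 with CA-NFATc3, and Msmo1 3357, 2998 and 3287 against 3953, 3609 and 3939. In both genes the groups were apart. The value for Cyp51 turned to -0.03 (adjusted p = 0.956) with the mean of its probe sets, so its direction rests on the brightest one. Abca1 read 2968, 3669 and 2611 against 2271, 3259 and 2262, which overlap between groups but are lower in each of the 3 numbered pairs. Without the block these genes had adjusted p of 0.196 (Fdps), 0.0886 (Sqle), 0.0612 (Cyp51), 0.113 (Msmo1), 0.0766 (Scap) and 0.537 (Abca1). Genes of the main steps that neither fit called were Hmgcs1 (0.10 ± 0.07), Idi1 (0.02 ± 0.13), Insig1 (0.10 ± 0.08), Stard4 (0.28 ± 0.12), Srebf1 (-0.13 ± 0.10), Scd1 (0.09 ± 0.13), Scd2 (0.11 ± 0.07), Fasn (-0.11 ± 0.10) and Elovl6 (-0.11 ± 0.08).

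**Figure D4:**
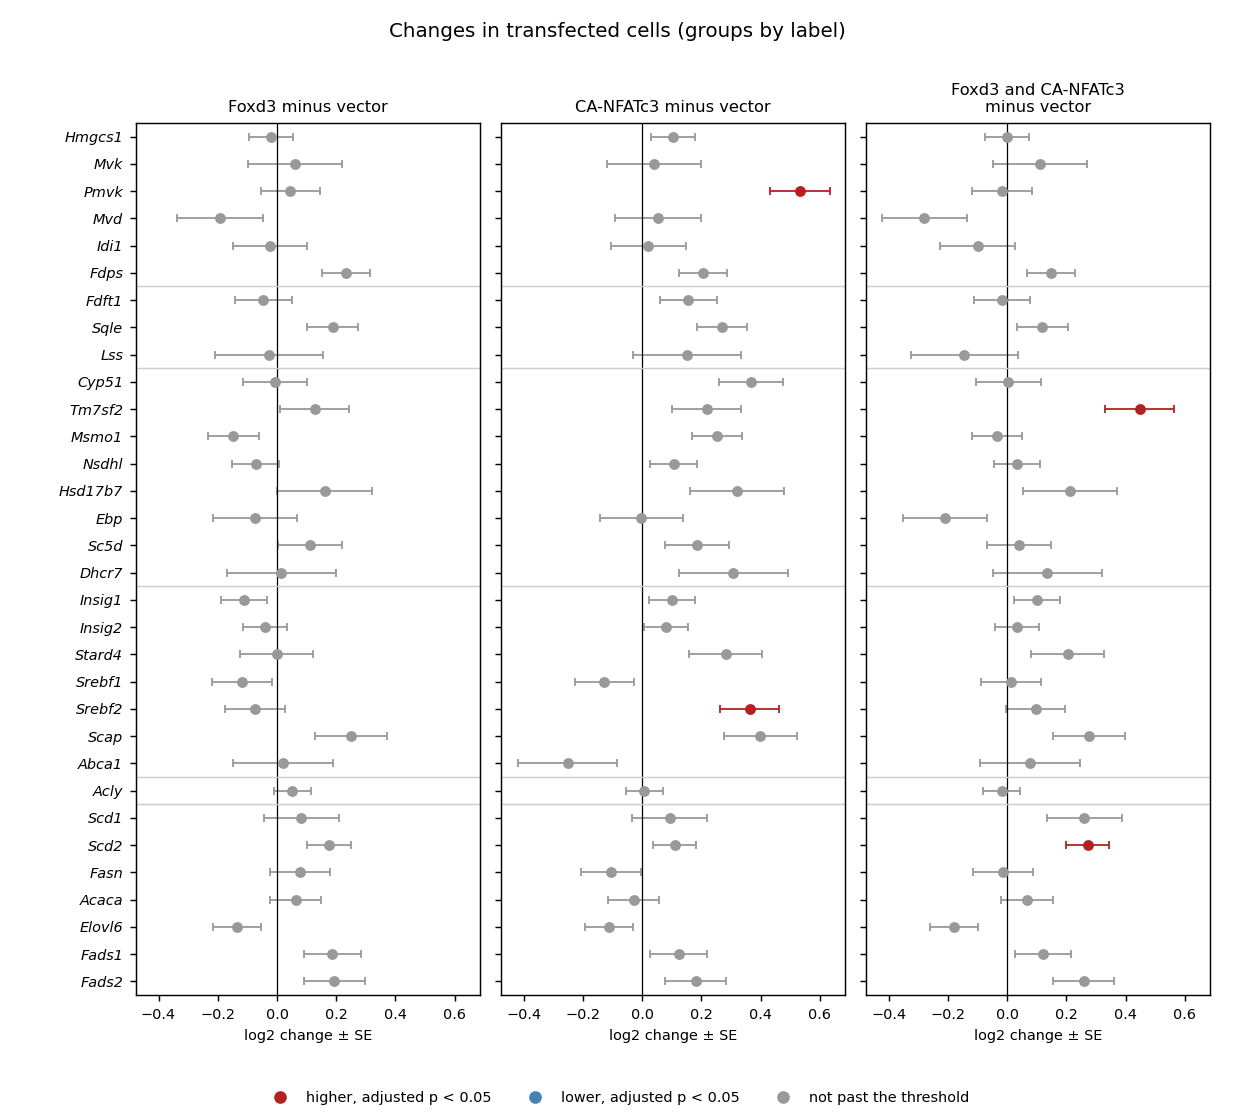
Log2 change ± SE of each of the 32 genes against the vector for arrays labelled Foxd3, CA-NFATc3, and Foxd3 with CA-NFATc3, from the fit without the replicate block, 3 arrays per group. Colours mark an adjusted p under 0.05: no gene with Foxd3, Pmvk and Srebf2 with CA-NFATc3, and Tm7sf2 and Scd2 with both. The 3 panels share the vector arrays.

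With both plasmids, a pair of other genes was called higher than with the vector, where 4.82% of all genes were called, 3.48% higher. Tm7sf2 read 305, 356 and 319 against 391, 508 and 479 (0.45 ± 0.12, adjusted p = 0.0374), and Scd2 13320, 14776 and 14200 against 16484, 17717 and 16871 (0.27 ± 0.07, adjusted p = 0.0444). Their groups were apart, yet the calls were weak: leaving out any 1 of the 6 arrays ended that of Scd2, as did no filter and the mean of probe sets (adjusted p up to 0.261). The call of Tm7sf2 ended without vector replicate 1 or 3 or replicate 2 or 3 of both plasmids, under quantile normalization, without a filter and with only the 2 groups (adjusted p up to 0.159). With the replicate block Ebp was called lower in addition (-0.21 ± 0.05, adjusted p = 0.0269). Pmvk, higher with CA-NFATc3 alone, read 933, 866 and 1060 here, at the level of the vector (-0.02 ± 0.10, adjusted p = 0.953). Hmgcs1 (-0.002), Idi1 (-0.10), Sqle (0.12), Cyp51 (0.004), Insig1 (0.10), Srebf1 (0.01), Srebf2 (0.10), Stard4 (0.20), Scd1 (0.26), Fasn (-0.01), Elovl6 (-0.18) and Abca1 (0.08) were not called.

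Between both plasmids and CA-NFATc3 alone, Pmvk was the 1 gene of 32 called, and it was lower (6.12% of all genes, 3.69% lower). It went from 1385, 1327 and 1511 to 933, 866 and 1060, with no overlap (-0.55 ± 0.10, adjusted p = 0.00285), and it was called under all 16 alternatives. With the replicate block, which raised the calls over all genes too, 5 genes were called. They were Pmvk, Cyp51 (-0.36 ± 0.08, adjusted p = 0.00659), Msmo1 (-0.29 ± 0.05, 0.00329) and Ebp (-0.21 ± 0.05, 0.0243) lower, and Abca1 higher (0.33 ± 0.07, 0.00509). Cyp51 read 914, 789 and 897 with both plasmids, against 1102, 1024 and 1253 with CA-NFATc3 alone, and here too the mean of its probe sets turned the value, to 0.15 (adjusted p = 0.627). Without the block the other changes in this comparison included Hmgcs1 (-0.11), Idi1 (-0.12), Sqle (-0.15), Insig1 (0.001), Srebf1 (0.14), Srebf2 (-0.27), Stard4 (-0.08), Scd1 (0.17), Scd2 (0.16), Fasn (0.09) and Elovl6 (-0.07), with adjusted p of 0.155 or more.

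The test of the interaction, which asks whether the effect of CA-NFATc3 differs with Foxd3, called 0 genes (0.810% of all genes), with Pmvk at -0.60 ± 0.14 (adjusted p = 0.0732). At an unadjusted p under 0.05 there were 5, against 8.48% of all genes. With the block, which raised the calls over all genes too, 2 were called, Pmvk (-0.60 ± 0.13, adjusted p = 0.0273) and Sqle (-0.34 ± 0.08, adjusted p = 0.0491). The interaction terms of other main genes were Hmgcs1 (-0.09), Idi1 (-0.10), Cyp51 (-0.36, and 0.02 with the mean of its probe sets), Insig1 (0.11), Srebf1 (0.26), Srebf2 (-0.19), Stard4 (-0.08), Scd1 (0.09), Scd2 (-0.01), Fasn (0.01), Elovl6 (0.07) and Abca1 (0.31). Both plasmids against the plasmid labelled Foxd3 gave 0 calls with or without the block (0.327% of all genes), and 2 at an unadjusted p under 0.05 (6.95% of all genes). The values there were small: Insig1 (0.21), Stard4 (0.21), Scd1 (0.18), Srebf2 (0.17), Srebf1 (0.13), Scd2 (0.10), Abca1 (0.06), Hmgcs1 (0.02), Cyp51 (0.01), Elovl6 (-0.04), Sqle (-0.07), Idi1 (-0.08) and Fasn (-0.09).

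Markers of other cell types differed among the transfected groups as well. Their counts are from the fit without the replicate block. Against the vector, CA-NFATc3 had 4 of 10 endoderm markers tested higher and 0 lower, among them Col4a1 (2.97 ± 0.13, adjusted p = 1.08e-09), and the summed signal of all 13 was 10036 to 12748 against 6561 to 7420. Of 9 trophoblast markers 4 were higher and 0 lower, among them Krt19 (2.29 ± 0.26, adjusted p = 3.72e-05), with a summed signal of all 10 of 5123 to 5471 against 3511 to 4130. Of 5 fibroblast markers tested 1 was higher, Col3a1 (796 to 993 against 587 to 638 for the sum of 10), and of 10 pluripotency markers 0 were called. The means of Gata4, Sox17, Dab2, Cubn, Elf5, Hand1 and Col3a1 were below 65.8 with the vector and above it with CA-NFATc3. That of Gata4 was barely above it (66.6), and Ascl2 went the other way (68.5 with the vector, 45.2 with CA-NFATc3). Foxa2 and Cdx2 were below it in both groups, and 6 of the 10 fibroblast markers stayed below it with CA-NFATc3.

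With both plasmids, 3 of 5 fibroblast markers (1225 to 1354 for the sum of 10) and 4 of 10 endoderm markers (7953 to 8898 for the sum of 13) were higher than with the vector, with 0 lower. Of 9 trophoblast markers 1 was higher and 1 lower (3431 to 3650 for the sum of 10), and of 10 pluripotency markers 0 were higher and 1 lower (105469 to 115703 against 116002 to 128007). Against CA-NFATc3 alone, both plasmids had 4 endoderm and 4 trophoblast markers lower and 0 higher, and 1 fibroblast marker higher, Col1a2. With the plasmid labelled Foxd3, 2 pluripotency markers and 1 trophoblast marker were lower and 1 endoderm marker was higher than with the vector. Both plasmids against Foxd3 had 2 fibroblast markers higher, and the interaction called 2 endoderm and 2 trophoblast markers, with values below 0. Some of these markers lay below 65.8 in a group compared and passed the filter through groups where they were higher. Col1a2 had means of 27.2 with the vector and 51.6 with CA-NFATc3, against 319 with both plasmids. Col3a1 had 18.1 with the vector and 22.4 with Foxd3, and Dab2 56.7 with the vector. With both plasmids Sox17 had 63.5, and Elf5 was above 65.8 only with CA-NFATc3 (157). The sizes of such changes depend on the offset. The part of these markers in the values of Pmvk, Srebf2 and the other genes was not tested.

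The steps differed in how far their levels ranged over the 6 groups. The ratio of the highest to the lowest group mean was 3.96 for Abca1, 2.57 for Scap, 2.35 for Cyp51, 2.26 for Lss and Msmo1, 2.12 for Stard4, 2.06 for Dhcr7 and 1.99 for Srebf2. It was 1.96 for Insig1, 1.95 for Hmgcs1, 1.91 for Ebp, 1.76 for Sc5d, 1.71 for Mvd and 1.53 for Idi1, and for Fdps it was 1.5. The narrow end held Mvk (1.11), Fads1 (1.15), Insig2 (1.18), Elovl6 (1.18), Acly (1.20), Srebf1 (1.21), Scd2 (1.24) and Sqle (1.27), and the rest lay from 1.37 (Fads2) to 1.48 (Pmvk): Acaca, Fdft1, Hsd17b7, Fasn, Tm7sf2, Scd1 and Nsdhl. Among the 4 transfected groups alone, the widest were Pmvk (1.48), Tm7sf2 (1.40), Srebf2 (1.38) and Scap (1.35). For Mvk, no neighbours in the order of the 6 groups stood apart, with means of 194 to 215.

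Genes next to these pathways moved in both directions with tamoxifen. Of 26 other fatty acid and acetyl-CoA genes tested 5 were higher and 6 lower, the widest being Elovl7 (-0.78 ± 0.18, adjusted p = 0.00512) and Elovl2 (-0.59 ± 0.11, adjusted p = 0.00135), which lengthen long chains, and Thrsp (-0.53 ± 0.19, adjusted p = 0.0490), whose mean of 61.8 with tamoxifen is so dim that the size depends on the offset. Of 25 other sterol handling genes 4 were higher and 4 lower. Ch25h, which makes 25-hydroxycholesterol, rose from 129 to 628 (2.06 ± 0.14, adjusted p = 8.62e-07), Npc2, a lysosomal sterol carrier, rose by 0.51 ± 0.05 (adjusted p = 2.17e-05), and Rnf145, a ubiquitin ligase of the sterol system, fell by 0.52 on the log2 scale (adjusted p = 4.25e-05). Of 20 glycerolipid and lipid droplet genes 3 were higher and 3 lower. Plin2, a coat protein of lipid droplets, rose from 1988 to 5013 (1.33 ± 0.09, adjusted p = 7.61e-07), Lpin1, a phosphatidate phosphatase and SREBP target, had a change of -0.64 ± 0.14 (adjusted p = 0.00446), and Chka, choline kinase, -0.57 ± 0.12 (adjusted p = 0.00261). The medians of these lists were -0.13, 0.06 and 0.01. The shares called, 11 of 26, 8 of 25 and 6 of 20, stand beside 34.4% of all genes (17.5% higher, 16.9% lower).

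Against the vector, the knockout cells with DMSO had 13 higher and 2 lower of the 26 other fatty acid genes, led by Mlxipl (1.51 ± 0.18), Acat1 (1.25 ± 0.10) and Elovl2 (1.06 ± 0.19), 4 higher and 5 lower of 25 sterol handling genes, and 6 higher and 1 lower of 21 glycerolipid genes. Over all genes 33.0% were higher and 22.0% lower. Among the sterol handling genes Scarb1, a lipoprotein receptor, was higher by 0.68 ± 0.12, and Ch25h (1.5) and Cyp27a1 (1.08) were higher from vector means of 26.4 and 47.8, too dim for a sized change. Plin2 (1.53 ± 0.16), Lpin1 (1.07 ± 0.16) and Chka (0.95 ± 0.14) led the glycerolipid genes, with adjusted p of 1.45e-07, 9.92e-06 and 1.22e-05. In the transfected cells Acsl4, which activates arachidonic acid, was higher with Foxd3 (0.61 ± 0.11), with CA-NFATc3 (0.73 ± 0.11) and with both (0.85 ± 0.11, adjusted p = 0.000316), as the 1 gene of the 26 called with Foxd3 and with both. With CA-NFATc3, 5 of the 26 were higher and 1 lower, among them Me1, malic enzyme, which supplies NADPH (0.90 ± 0.15, adjusted p = 0.00152), and Elovl1 (0.56 ± 0.12, adjusted p = 0.0112). Elovl4 was higher with both plasmids than with CA-NFATc3 (0.57 ± 0.12, adjusted p = 0.00914). In the limma fit without the replicate block, the sterol handling and glycerolipid lists had 0 calls in any comparison of transfected cells. At an unadjusted p under 0.05 there were 0 to 5 of 23 and 0 to 2 of 20 genes. Calls with the block, which raised the counts over all genes, are not given for these neighbouring lists.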

How the data were processed

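RNA of 18 samples of mouse embryonic stem cells was measured on Affymetrix arrays, 6 groups of 3. The deposited values are linear intensities; MAS5 is named, with no version, in the submitters' processing notes. In each array the mean without the lowest and highest 2% was 500, read from the values. Detection calls were not used here. All 18 columns matched a sample. Of 45101 probe sets, 34945 had 1 gene symbol and 932 several, which were left out.

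After an offset of 32, signals were converted to log2. A gene was tested if it reached 65.8, the median of all deposited values, in at least 3 arrays of the fit. The groups were compared by limma 3.58.1 under R 4.3.3, with lmFit and eBayes with trend, over the 12 transfected arrays, the 6 knockout arrays, or all 18 for knockout with DMSO against vector. Tests were two-sided and adjusted by Benjamini and Hochberg over all genes tested. The scripts were tested on simulated data: of changes of 0.5 and 1 (log2), 44% and 87% were recovered in the fit of transfected arrays (11609 genes), and 45% and 81% in that of knockout arrays (12093 genes). Figures were drawn with matplotlib 3.10.9.

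Replicate numbers were checked by correlating residuals from group means: all 18 same-numbered pairs of transfected arrays correlated at 0.104 to 0.315 (median 0.156) and the 36 others at -0.282 to 0.0133, so the numbers pair those arrays by their values, not by a label. Same-numbered knockout arrays correlated at -0.0425 to 0.0152 and were not paired.

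The genes, lists and named genes were chosen with earlier results of these data known. Named were every called gene of the list, 13 genes of the main steps in each comparison, and the 3 called genes with the largest change in each neighbouring list. Alternatives were the offset, quantile normalization, filters on low signals, the mean of a gene's probe sets, array weights, the replicate block, the arrays in the fit, and leaving out each array.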

Additional observations from a re-analysis of the deposited data

How the results depend on the processing

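For tamoxifen against DMSO the 19 called genes became 14 to 23 under the alternatives with all arrays and 13 to 22 when 1 array was left out, the lowest without DMSO replicate 3 and the highest without DMSO replicate 1. With the replicate block it was 18, Sc5d being lost (adjusted p = 0.0572). The 21 called for knockout with DMSO against vector became 20 to 22, and 18 to 21 with 1 array left out. The 2 genes called with CA-NFATc3 became 1 under quantile normalization, without a filter and with only the 2 groups in the fit, 4 with all 18 arrays in 1 fit, 5 with array weights, 8 with the replicate block, and 1 to 2 with 1 array left out. The 2 called with both plasmids became 1 under quantile normalization, with the mean of probe sets and with only the 2 groups, 0 without a filter, 3 with the replicate block, and 0 to 1 with 1 array left out. The 1 called between both plasmids and CA-NFATc3 became 2 under quantile normalization, 3 with array weights or all 18 arrays, 5 with the replicate block, and was 1 with any array left out. For Foxd3 against vector the count was 0 but 1 with the replicate block. For the interaction it was 0 but 1 with array weights or all 18 arrays, 2 with the replicate block, and 0 to 1 with 1 array left out (1 without vector replicate 2). Both plasmids against Foxd3 stayed at 0. The cause of these shifts was not tested. The value for Sc5d with tamoxifen turned to -0.000499 (adjusted p = 0.998) with the mean of its probe sets. Of 2051 alternative values of 127 results for single genes, 1954 stayed on the same side of the threshold, 77 lost their call, 19 gained one and 1 reversed. Many of the 127 results were not called to begin with and could not lose a call, so the total says little of how stable the calls were. A value that was not called could change sign and still count as the same side, as that of Cyp51 did with CA-NFATc3.

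Over all genes, counts moved by more than 1.5 times in some settings. With the replicate block the genes called, of 11609 tested, rose from 334 to 783 for Foxd3 against vector, from 680 to 1104 for CA-NFATc3, from 559 to 1122 for both, from 711 to 1258 for both against CA-NFATc3, from 38 to 96 for both against Foxd3 and from 94 to 245 for the interaction. With array weights Foxd3 against vector gave 552 and the interaction 172, with the mean of probe sets both plasmids gave 343, and with all 18 arrays both against Foxd3 gave 63 and the interaction 161. With 1 array left out they were 158 to 282, 349 to 620, 322 to 461, 385 to 585, 22 to 28 and 48 to 104.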
